A study of Mus musculus with 6 samples.

Results

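SR proteins and heterogeneous nuclear ribonucleoproteins (hnRNPs) are the main families of RNA-binding proteins that set which exons enter an mRNA. Their genes were followed in DN4 thymocytes sorted by a Gata3 reporter. The rows whose symbol starts with Srsf and a digit, or with Hnrnp, were taken from the FPKM table of 6 libraries, and 1 row with a pseudogene suffix was left out. This gave 31 genes of 41386 listed, 11 of the Srsf and 20 of the Hnrnp family. The symbols alone decided which rows entered, but the families were chosen with earlier results of these data known.

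SR proteins carry RNA recognition motifs and a tail rich in arginine and serine, and bound to an exon they mostly recruit the spliceosome to its ends. hnRNPs coat nascent transcripts and often oppose exon inclusion, so that the balance of both families sets the splicing of many alternative exons. In T cells, switches of this kind are known for the surface phosphatase CD45 (Ptprc), on which hnRNP L and hnRNP LL act. Phosphorylation of the arginine-serine tail by the SRPK and CLK kinases controls where SR proteins go and when they act.

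DN4 cells are the last double-negative thymocytes, past the selection for a T cell receptor beta chain and just before the double-positive stage. GFP-positive and GFP-negative DN4 thymocytes, with 3 libraries each, came from adult C57BL/6 mice of genotype Gata3(g/+), in which a GFP reporter stands at one Gata3 allele and the other allele is wild type, a genotype that both groups share. Total RNA was depleted of ribosomal RNA and sequenced, and levels are FPKM, fragments scaled by the authors to the length of the gene and to the fragments sequenced in the library. The labels name no separate animals for the libraries, so that p-values measure the spread between libraries, which may be technical.

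Gata3, the T lineage factor behind the reporter, measured 64.2, 62.7 and 63.0 FPKM in GFP-positive libraries 1 to 3, against 20.8, 24.3 and 22.3 FPKM in GFP-negative libraries 1 to 3. The depth of the libraries is unknown, since FPKM hold no read totals and the lowest values shared no common step (3.38% to 10.9% of low genes lay at the commonest ratio to GFP-negative library 1). The groups differed broadly. All 14 genes of a double-positive stage list were lower in GFP-positive cells (summed 597 to 618 FPKM, against 3004 to 4118 FPKM in GFP-negative cells), with Cd4 at 7.73 ± 2.21 FPKM in GFP-positive and 229.5 ± 34.8 FPKM in GFP-negative cells (SD, n = 3 each), although the DN4 label implies cells without CD4 at the surface. All 18 genes of a proliferation list were higher (summed 1981 to 2109 FPKM in GFP-positive and 638 to 1077 FPKM in GFP-negative cells). Of 10 myeloid markers, Cd14, Elane, S100a8 and S100a9 were at 0 in all 6 libraries, and so was Pax5, a B cell marker. Of 10 gamma-delta T cell markers, 8 were higher (summed 143.0 to 143.9 FPKM in GFP-positive and 18.5 to 49.9 FPKM in GFP-negative cells) with Il17a at 0. Of 8 natural killer and innate lymphoid markers 1 was higher (summed 98.6 to 113.9 FPKM in GFP-positive and 20.8 to 38.4 FPKM in GFP-negative cells). That sum was mostly Gzma, the marker called (98.5 FPKM on average in GFP-positive and 23.6 FPKM in GFP-negative cells). Of these 8 markers, 5 had a mean under 1 FPKM. B cell markers summed to 131 to 156 FPKM in GFP-positive and 146 to 162 FPKM in GFP-negative cells, mostly Ighm (144 FPKM on average in GFP-positive and 143 FPKM in GFP-negative cells), while Cd79b was lower in GFP-positive cells (2.66 FPKM on average, against 7.83 FPKM in GFP-negative cells). Myeloid markers, mostly Itgam in GFP-negative cells, summed to 0.260 to 0.805 FPKM in GFP-positive and 2.01 to 3.31 FPKM in GFP-negative cells. Erythroid markers summed to 2.12 to 3.34 FPKM in GFP-positive and 2.20 to 3.09 FPKM in GFP-negative cells. Thymic stroma markers summed to 13.1 to 17.4 FPKM in GFP-positive and 21.6 to 24.4 FPKM in GFP-negative cells, mostly Pecam1, which was lower in GFP-positive cells (12.5 FPKM on average, against 21.2 FPKM in GFP-negative cells), with Foxn1, Krt5 and Pdgfra at 0. All 13 double-negative thymocyte markers had a mean over the 6 libraries of at least 1 FPKM, 4 higher and 3 lower in GFP-positive cells. The part that stage, other cell types and cell cycle have in the differences below was not tested. In sorted bulk samples, fewer cells of a type and less RNA per cell cannot be told apart.

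Both families were abundant and most of their members stood higher in GFP-positive cells. Of the 31 genes, 30 had a mean of at least 1 FPKM and were tested. Their means ran between 17.8 FPKM for Srsf4 and 425 FPKM for Hnrnpa3, with a median of 137 FPKM against 9.84 FPKM over all 11465 genes tested. The most abundant member, Hnrnpa3, ranked at position 132 of all genes tested, and the median member lay at percentile 96.3 of level in the Srsf family and 97.2 in the Hnrnp family. Summed over both families, the levels were 5354, 5803 and 5835 FPKM in GFP-positive libraries 1 to 3, against 4029, 4401 and 4773 FPKM in GFP-negative libraries 1 to 3. Every GFP-positive library lay above every GFP-negative one in this sum.

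With limma on log2(FPKM + 0.5) and p-values adjusted by Benjamini and Hochberg's method over all genes, 16 of the 30 members rose in GFP-positive cells and 3 fell at an adjusted p under 0.05. Over all genes tested, 24.4% were called higher and 29.8% lower, together 54.2%. The members thus carried 53.3% higher and 10.0% lower calls. Their median log2 fold change was 0.35, beside -0.08 for all genes tested. Of the 3394 tested genes with a mean FPKM in the range of the members, 36.1% were higher and 30.8% lower. The median level of these 3394 genes was 32.6 FPKM, against 137 FPKM for the members, so that levels were not matched. Together 66.9% of these genes were called, against 63.3% of the members, and their median log2 fold change was 0.057. Without overlap between the libraries of both groups, 20 members stood higher and 3 lower, where 28.7% and 35.1% of all genes tested did so, together 63.8%. In the authors' comparison over 6 libraries, a q under 0.05 was given to 17 members as higher and 2 as lower, against 23.4% and 25.9% of the genes the authors tested (49.3% in all), and 17 of these members were also called here. In the authors' comparison over 4 libraries, 9 of the 30 members had a q under 0.05, beside 3985 of the 11465 genes tested here. Fold changes on this scale are GFP-positive over GFP-negative.

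Both families showed similar shares of calls; a difference between them was not tested. The Srsf family had 6 higher and 1 lower of 10 tested and a median log2 fold change of 0.35, and the Hnrnp family had 10 higher and 2 lower of 20 and a median of 0.37. Log2 fold changes of single members ran from -1.02 to 0.73 in Srsf and from -0.53 to 1.01 in Hnrnp. The higher Hnrnp calls numbered 6 without GFP-positive library 3. Quantile normalization moved the median of all genes up by 0.13 and lowered the family medians to 0.20 (Srsf) and 0.21 (Hnrnp), with 3 higher and 1 lower Srsf genes and 7 higher and 4 lower Hnrnp genes. Relative to all genes the family medians were then 0.15, against 0.43 and 0.44 without it.

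**Figure D1:**
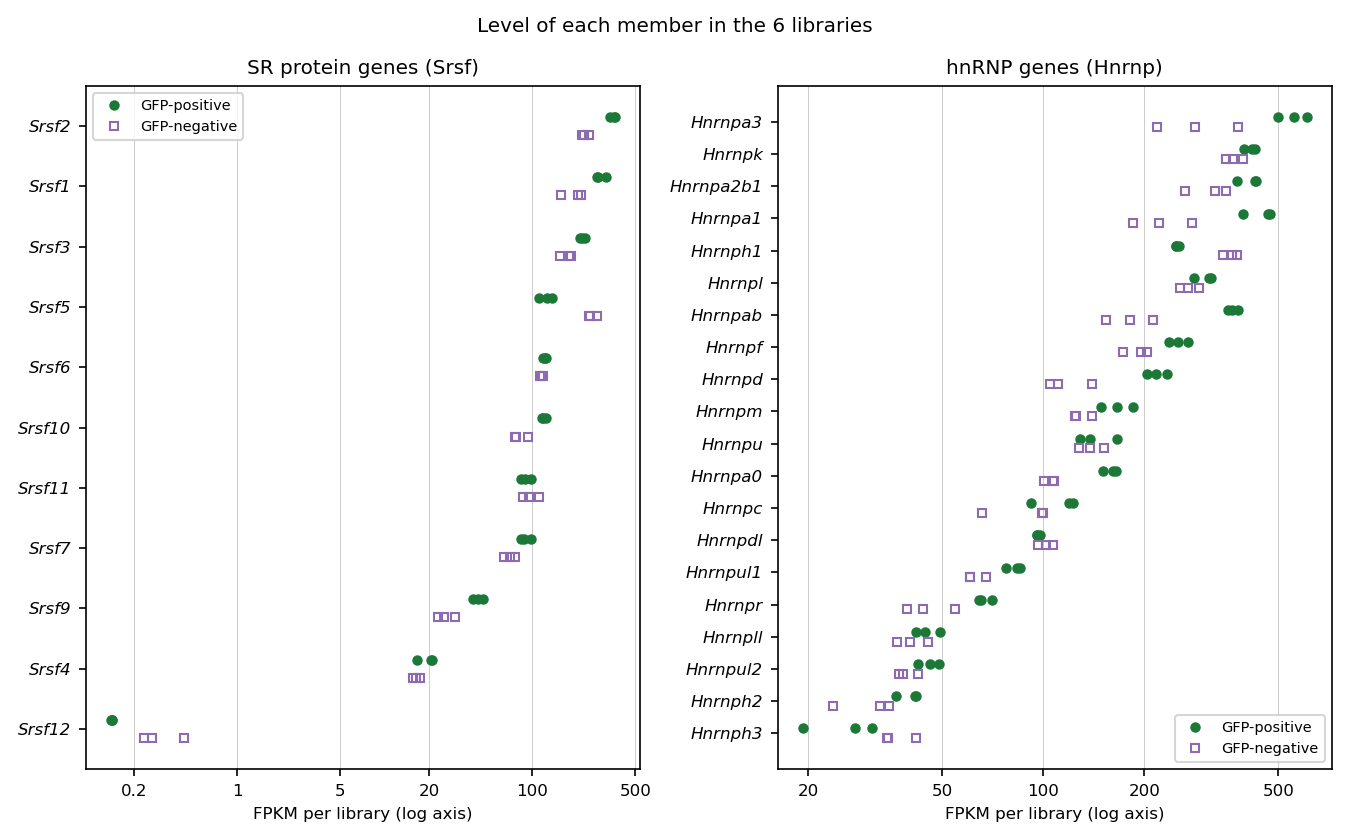
FPKM of each member (log axis) in the 3 GFP-positive libraries (filled circles) and the 3 GFP-negative libraries (open squares), with the SR genes on the left and the hnRNP genes on the right, ordered by mean level. Srsf5 and Hnrnph1 have all GFP-positive points to the left of the GFP-negative ones, while Hnrnpa3, Hnrnpa1 and Hnrnpab have them to the right.

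Among SR proteins with a single RNA recognition motif, all 4 tested genes were called higher, beside 24.4% of all genes tested. Srsf2, also known as SC35, which binds exonic enhancers and marks nuclear speckles, had 338, 357 and 364 FPKM in GFP-positive libraries 1 to 3, against 219, 224 and 244 FPKM in GFP-negative libraries 1 to 3. The groups were well apart, with a fold change of 0.62 ± 0.11 in log2 units (SE, with an adjusted p of 0.00162 in limma). Exons of Srsf2 overlap those of Mettl23 and Mfsd11 on the opposite strand, and the sources used here do not say whether counting used the strand, so that reads of overlapping genes may be mixed. Exon overlaps of more than 250 bases are also listed for Srsf4 (with Gm12992), Hnrnpab (with Phykpl), Hnrnpu (with Cox20), Hnrnpr (with Gm27022), Hnrnpf (with 4933440N22Rik and Gm43863), Hnrnpd (with Gm17092) and Hnrnpk (with Rmi1) on the opposite strand, and for Hnrnpm (with March2) and Hnrnpul2 (with AC129217.1) on the same strand. Srsf10, a splicing repressor when dephosphorylated, had 117, 117 and 125 FPKM in GFP-positive cells and 77.4, 76.2 and 93.5 FPKM in GFP-negative cells (log2 fold change 0.54 ± 0.12, adjusted p = 0.00476).

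Srsf3 and Srsf7, which also act as adaptors of mRNA export, moved less and by nearly the same amount. Srsf3 had 218, 227 and 209 FPKM in GFP-positive and 154, 176 and 184 FPKM in GFP-negative libraries (log2 fold change 0.35 ± 0.12, limma adjusted p = 0.0306). Srsf7 had 87.5, 98.3 and 84.0 FPKM in GFP-positive and 64.3, 76.5 and 70.5 FPKM in GFP-negative libraries (0.35 ± 0.12, adjusted p = 0.0322). For neither gene did the groups overlap, but both calls were lost in 8 of 16 alternatives. Srsf3 lost its call without any one library except GFP-negative library 3 (log2 fold change 0.28 to 0.38, adjusted p up to 0.121), and Srsf7 without GFP-positive library 1, 2 or 3 or GFP-negative library 1 (0.29 to 0.40, adjusted p up to 0.140). Srsf12, a relative of Srsf10, was nearly silent at 0.141, 0.139 and 0.141 FPKM in GFP-positive and 0.434, 0.231 and 0.263 FPKM in GFP-negative libraries, and was not tested.

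The SR proteins with a pair of RNA recognition motifs parted. Srsf1, the founding SR protein and a promoter of growth when overexpressed, had 274, 314 and 281 FPKM in GFP-positive cells, against 156, 204 and 215 FPKM in GFP-negative cells (log2 fold change 0.61 ± 0.15, limma adjusted p = 0.00721). Its close relative Srsf9 had 43.2, 39.6 and 46.6 FPKM in GFP-positive and 22.8, 25.2 and 29.7 FPKM in GFP-negative libraries, and with 0.73 ± 0.13 (adjusted p = 0.00162) showed the largest increase of the family. Every GFP-positive library lay above every GFP-negative one for both genes. With quantile normalization the calls of Srsf1 and Srsf2 were lost (log2 fold changes 0.25 and 0.15, adjusted p = 0.140 and 0.196), while that of Srsf9 was not. Srsf3 also lost its call there (0.071, adjusted p = 0.562), as did Srsf7 (0.29, adjusted p = 0.0531), and Srsf4 gained one (0.295, adjusted p = 0.0447).

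Srsf5, also called SRp40, was the one SR gene that fell, and it showed the largest change of any member in either direction. It had 110.2, 127 and 137 FPKM in GFP-positive libraries 1 to 3, against 273, 241 and 244 FPKM in GFP-negative libraries 1 to 3, a mean of 124 ± 13.3 FPKM against 253 ± 17.5 FPKM (SD, n = 3 each). The log2 fold change was -1.02 ± 0.12 (limma, adjusted p = 0.000299), and the call held in all 16 alternatives, with log2 fold changes between -1.34 and -0.87. The gene lies on the plus strand of chromosome 12, positions 80945504 to 80950507 of mm10 (GENCODE M21). Its nearest relatives showed no such decrease. Srsf6 had 121, 119 and 124 FPKM in GFP-positive and 118, 114 and 112 FPKM in GFP-negative libraries (0.08 ± 0.10, adjusted p = 0.515; -0.019 with quantile normalization), and Srsf4 had 16.4, 20.6 and 20.8 FPKM in GFP-positive and 16.3, 15.6 and 17.3 FPKM in GFP-negative libraries (0.22 ± 0.13, adjusted p = 0.180). Srsf11, an atypical SR protein, had 84.2, 89.6 and 97.4 FPKM in GFP-positive and 94.9, 86.5 and 111 FPKM in GFP-negative libraries, which overlapped (-0.10 ± 0.13, adjusted p = 0.517).

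**Figure D2:**
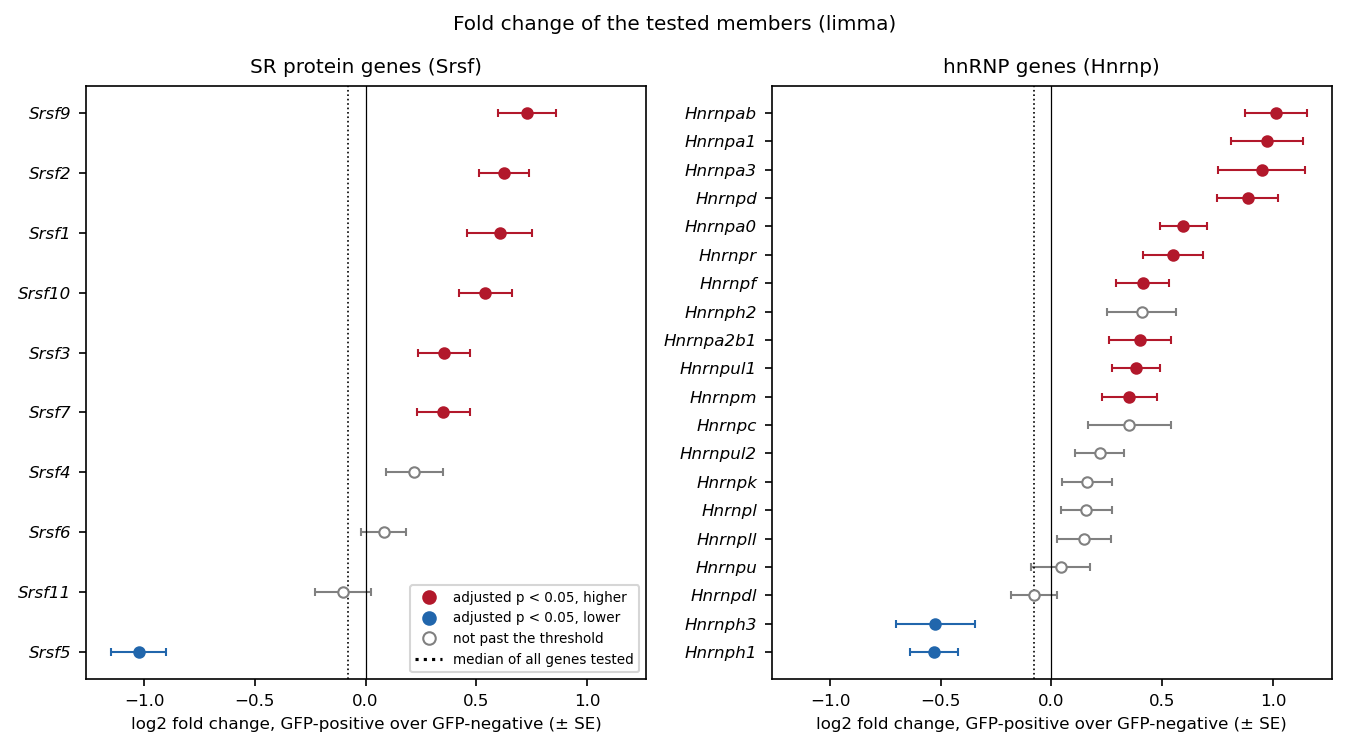
Log2 fold change of each tested member, GFP-positive over GFP-negative, with its standard error (limma on log2(FPKM + 0.5)), SR genes on the left and hnRNP genes on the right. Red and blue points passed an adjusted p of 0.05, open points did not, and the dotted line is the median of all genes tested at -0.08; 16 red and 3 blue points are seen, and Srsf5 lies farthest to the left.

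The hnRNPs of the A/B and D type, with paired RNA recognition motifs and a glycine-rich tail, held the largest increases. Of these 7 genes, 6 were called higher, beside 24.4% of all genes tested. Hnrnpab led with 354, 365 and 380 FPKM in GFP-positive libraries 1 to 3, against 154, 181 and 212 FPKM in GFP-negative libraries 1 to 3, at 1.01 ± 0.14 on the log2 fold change scale (SE, with an adjusted p of 0.000485 in limma). Hnrnpa1, the best studied repressor of exon inclusion, had 393, 466 and 471 FPKM in GFP-positive and 185, 221 and 278 FPKM in GFP-negative libraries (0.97 ± 0.16, adjusted p = 0.00124). Hnrnpa3 had 500.2, 558 and 608 FPKM in GFP-positive and 219, 282 and 381 FPKM in GFP-negative libraries (0.95 ± 0.20, adjusted p = 0.00338), a call lost with quantile normalization (0.33, adjusted p = 0.115). In these 3 genes the groups were apart, and the value of GFP-negative library 3 was the nearest to the GFP-positive ones. Hnrnpa1 and Hnrnpa3 have processed pseudogene copies in the genome, so that the assignment of their reads is uncertain.

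Hnrnpd, or AUF1, which binds AU-rich elements and speeds the decay of mRNAs, had 233, 203 and 217 FPKM in GFP-positive and 111, 105 and 139 FPKM in GFP-negative libraries (log2 fold change 0.89 ± 0.14, limma adjusted p = 0.000847). Hnrnpa0, an intronless gene whose protein also binds AU-rich elements, had 164, 161 and 151 FPKM in GFP-positive and 100.4, 108 and 107 FPKM in GFP-negative libraries (0.60 ± 0.11, adjusted p = 0.00158). The groups were apart for both genes. Hnrnpa2b1, involved in RNA transport as well as splicing, moved less, at 376, 430 and 426 FPKM in GFP-positive and 265, 323 and 350 FPKM in GFP-negative libraries (0.40 ± 0.14, adjusted p = 0.0363). Its call was lost in 10 of 16 alternatives, among them without any one library except GFP-negative library 3 (0.28 to 0.46, adjusted p up to 0.127), and its sign turned with quantile normalization (-0.22). Hnrnpdl, the close relative of Hnrnpd, was the exception, with 95.8, 97.8 and 95.8 FPKM in GFP-positive and 107, 96.8 and 102 FPKM in GFP-negative libraries (-0.08 ± 0.10, adjusted p = 0.546).

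The F/H group, whose proteins bind runs of guanosine, was the part of the Hnrnp family that split in direction. Hnrnph1 fell to 248, 248 and 254 FPKM in GFP-positive libraries 1 to 3, against 365, 343 and 377 FPKM in GFP-negative libraries 1 to 3, with no overlap (log2 fold change -0.53 ± 0.11, limma, adjusted p = 0.00321). The values of GFP-positive libraries 1 and 2 were equal in every digit given, which occurred for this gene and no other among 11465 tested genes and all pairs of libraries (values above 0), so that its spread may be understated. Hnrnph3, which lacks the first of the recognition motifs of its relatives, had 19.3, 27.6 and 30.9 FPKM in GFP-positive and 34.4, 34.4 and 41.9 FPKM in GFP-negative libraries (-0.52 ± 0.18, adjusted p = 0.0334). This call was lost in 8 of 16 alternatives, also without GFP-positive library 1 or 2 or GFP-negative library 2 or 3 (-0.58 to -0.33, adjusted p up to 0.0896). Hnrnpf rose, at 237, 270.0 and 252 FPKM in GFP-positive and 173, 203 and 195 FPKM in GFP-negative libraries (0.41 ± 0.12, adjusted p = 0.0171), a call lost without GFP-positive library 2 or 3 (0.36 and 0.41, adjusted p = 0.0860 and 0.0575) and with quantile normalization (0.083). Hnrnph2, on the X chromosome, had 36.6, 41.6 and 41.7 FPKM in GFP-positive and 23.7, 34.7 and 32.8 FPKM in GFP-negative libraries, which did not overlap (0.41 ± 0.15, adjusted p = 0.0510); it was called without GFP-negative library 2 or 3 (0.51 and 0.47, adjusted p = 0.0403 and 0.0405).

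Of the 9 remaining hnRNPs, 3 rose and 0 fell, beside 24.4% and 29.8% of all genes tested. Hnrnpr, which associates with the SMN protein, had 65.4, 64.6 and 70.2 FPKM in GFP-positive and 39.2, 44.0 and 54.5 FPKM in GFP-negative libraries (log2 fold change 0.55 ± 0.14, limma, adjusted p = 0.00838). Hnrnpul1, of the U type, had 83.4, 77.5 and 85.3 FPKM in GFP-positive and 60.6, 60.6 and 67.4 FPKM in GFP-negative libraries (0.38 ± 0.11, adjusted p = 0.0148), a call lost without GFP-positive library 3 (0.35, adjusted p = 0.0604), in the 4-library table (0.27, adjusted p = 0.109) and in the same 4 libraries of the 6-library table (0.34, adjusted p = 0.0610). Hnrnpm had 148, 166 and 185 FPKM in GFP-positive and 124, 125 and 140 FPKM in GFP-negative libraries (0.35 ± 0.12, adjusted p = 0.0377), a call lost without GFP-positive library 2 or 3 or GFP-negative library 1 or 2 (0.27 to 0.35, adjusted p up to 0.151). The groups did not overlap in these 3 genes.

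The members that did not pass included several of the most abundant. Hnrnpk, which binds runs of cytidine, had 395, 427 and 417 FPKM in GFP-positive and 351, 394 and 366 FPKM in GFP-negative libraries (log2 fold change 0.16 ± 0.11, limma, adjusted p = 0.262), and with quantile normalization it was called lower (-0.485, adjusted p = 0.00681). Hnrnpl, which binds CA repeats, had 281, 311 and 316 FPKM in GFP-positive and 255, 290.0 and 269 FPKM in GFP-negative libraries (0.16 ± 0.12, adjusted p = 0.275; -0.34 with quantile normalization, adjusted p = 0.0487). Hnrnpll, named above for CD45, had 41.9, 49.2 and 44.4 FPKM in GFP-positive and 36.7, 40.2 and 45.4 FPKM in GFP-negative libraries (0.15 ± 0.12, adjusted p = 0.332). Hnrnpc, which binds uridine tracts as a tetramer, had 92.0, 119.6 and 123 FPKM in GFP-positive and 65.8, 98.9 and 99.7 FPKM in GFP-negative libraries (0.35 ± 0.19, adjusted p = 0.142). With the library number as a block in limma, Hnrnpc was called (adjusted p = 0.0225). Hnrnpu, the scaffold attachment factor, had 137, 165 and 129 FPKM in GFP-positive and 128, 138 and 152 FPKM in GFP-negative libraries (0.041 ± 0.13, adjusted p = 0.814), and Hnrnpul2 42.4, 46.1 and 48.8 FPKM in GFP-positive and 37.3, 38.2 and 42.3 FPKM in GFP-negative libraries (0.22 ± 0.11, adjusted p = 0.126). The groups overlapped in Hnrnpl, Hnrnpll, Hnrnpc and Hnrnpu, and not in Hnrnpk and Hnrnpul2.

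Ratios of related genes within a library do not depend on the scaling between libraries. Of 12 ratios compared, 7 did not overlap between the groups, where 63.8% of all genes tested did not overlap when taken singly. Each of the 7 had a two-sided exact permutation p of 0.10, the smallest that 3 against 3 libraries allow. After Benjamini and Hochberg's adjustment over the 12 this was 0.171, so that none passes 0.05. The 7 include Hnrnpul1 over Hnrnpul2, whose ratio was only 1.12-fold higher in GFP-positive cells. Srsf5 stood at 0.907, 1.07 and 1.10 times the FPKM of Srsf6 in GFP-positive libraries 1 to 3, against 2.32, 2.12 and 2.17 times in GFP-negative libraries 1 to 3. The GFP-negative cells thus held more Srsf5 than Srsf6 per length, and the GFP-positive cells about as much of each. Hnrnph1 stood at 1.05, 0.917 and 1.01 times Hnrnpf in GFP-positive libraries, against 2.11, 1.69 and 1.93 times in GFP-negative libraries. Hnrnpd stood at 2.43, 2.08 and 2.26 times Hnrnpdl in GFP-positive libraries, against 1.04, 1.08 and 1.37 times in GFP-negative libraries, and Hnrnpa1 at 1.05, 1.08 and 1.11 times Hnrnpa2b1 in GFP-positive libraries, against 0.698, 0.685 and 0.794 times in GFP-negative libraries. Other pairs kept close values. Srsf3 over Srsf7 averaged 1.28 ± 0.062 in GFP-positive and 1.28 ± 0.090 in GFP-negative cells on the log2 scale, and Hnrnpl over Hnrnpll 2.75 ± 0.086 in GFP-positive and 2.74 ± 0.15 in GFP-negative cells (SD, n = 3 each). The pairs were chosen after the values of the genes had been seen.

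**Figure D3:**
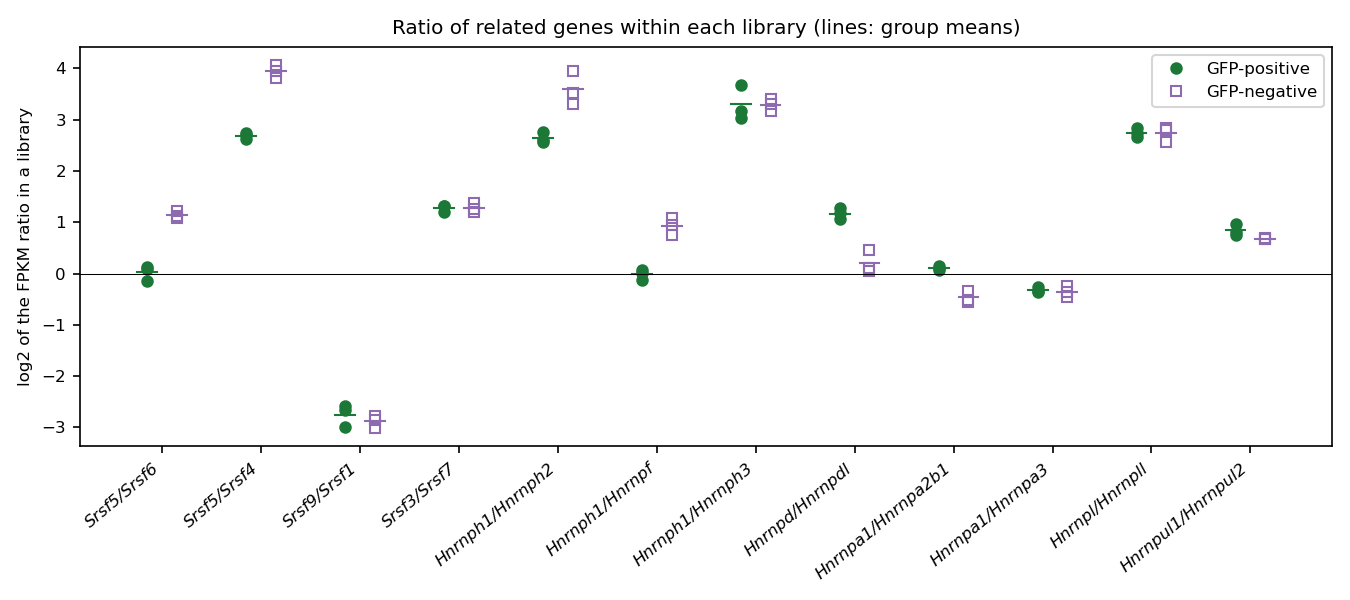
Log2 of the FPKM ratio of 12 pairs of related genes in each library, GFP-positive (filled circles) left of GFP-negative (open squares), with lines at the group means. The ratios with Srsf5 on top, and those of Hnrnph1 to Hnrnph2 and to Hnrnpf, are lower in every GFP-positive library, and the ratio of Hnrnpd to Hnrnpdl is higher in each.

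Within the groups the same libraries were most often highest or lowest for the members and for all genes, with larger shares for the members. GFP-negative library 3 held the highest value of its group for 21 of the 30 tested members, against 43.9% of all genes tested, and GFP-negative library 1 the lowest for 22, against 45.3%. GFP-positive library 1 was the lowest of its group for 20 members, against 57.3% of all genes. In the same libraries the mean log2 level of the proliferation list was 6.40, 6.53 and 6.52 in GFP-positive libraries 1 to 3, against 4.655, 4.90 and 5.48 in GFP-negative libraries 1 to 3. Library 3 was thus the highest GFP-negative library for both, and the part of proliferation in the levels of the splicing factors was not tested. Without GFP-negative library 3 the median log2 fold change was 0.38 for Srsf and 0.43 for Hnrnp, with 7 and 12 members called.

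Annotated transcripts were not used in the choice of members. GENCODE M21 lists at least 1 transcript marked for nonsense-mediated decay, the pathway that destroys mRNAs with a premature stop, for 9 of the 10 tested Srsf genes and for 10 of the 20 Hnrnp genes, against 31.1% of 9892 protein-coding genes tested. Srsf10 was the exception among SR genes. A retained intron transcript is listed for 8 Srsf and 14 Hnrnp genes, against 62.4% of protein-coding genes, so that the Hnrnp count lies near the share of all. The members also have more listed transcripts, with a median of 7.5 for Srsf and 8 for Hnrnp against 5 for protein-coding genes tested, and the counts above were not corrected for this. SR proteins are known to hold down their own level through such exons. The deposited values are per gene, so productive and destroyed transcripts of a member cannot be told apart.

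Promoter sequences were matched by symbol in RefSeq (GRCm38.p6) for 29 of the 31 members, all except Hnrnpll and Hnrnpul2. The 250 bases before the first listed start of each gene were searched on both strands for an NF-Y box (CCAAT), a GC box (GGGCGG), an E-box (CACGTG), an ETS site (CCGGAAG) and E2F sites (TTTCCCGC or TTTGGCGC). These windows are shown for the 3 hnRNP genes with the largest increase and for Srsf5, because these members moved most and in opposite directions; capitals mark the matches, which can touch where a GC box runs into an ETS site or a second GC box.
Hnrnpab promoter (chr11:51606882-51607131, minus strand): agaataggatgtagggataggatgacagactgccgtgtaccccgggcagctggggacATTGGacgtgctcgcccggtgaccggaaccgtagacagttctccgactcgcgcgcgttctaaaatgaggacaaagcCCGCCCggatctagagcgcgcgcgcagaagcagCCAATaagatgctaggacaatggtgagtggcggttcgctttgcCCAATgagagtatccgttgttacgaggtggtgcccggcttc
Hnrnpa1 promoter (chr15:103240147-103240396, plus strand): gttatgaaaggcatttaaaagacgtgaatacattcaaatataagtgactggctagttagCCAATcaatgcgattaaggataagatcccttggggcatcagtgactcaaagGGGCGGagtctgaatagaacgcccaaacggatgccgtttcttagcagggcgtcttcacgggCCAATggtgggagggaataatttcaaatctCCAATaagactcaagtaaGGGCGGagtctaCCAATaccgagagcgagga
Hnrnpa3 promoter (chr2:75659009-75659258, plus strand): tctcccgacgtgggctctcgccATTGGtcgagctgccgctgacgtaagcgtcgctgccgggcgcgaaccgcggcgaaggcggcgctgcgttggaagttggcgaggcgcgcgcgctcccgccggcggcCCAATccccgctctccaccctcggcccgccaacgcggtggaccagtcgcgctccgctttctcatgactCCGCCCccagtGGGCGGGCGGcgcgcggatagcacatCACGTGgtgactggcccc
Srsf5 promoter (chr12:80945249-80945498, plus strand): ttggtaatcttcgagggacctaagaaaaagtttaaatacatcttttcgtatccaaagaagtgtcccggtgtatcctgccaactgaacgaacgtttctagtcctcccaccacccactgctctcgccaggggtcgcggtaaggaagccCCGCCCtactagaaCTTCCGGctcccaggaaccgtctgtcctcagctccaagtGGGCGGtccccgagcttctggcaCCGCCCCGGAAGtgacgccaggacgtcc

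The promoters of Hnrnpab, Hnrnpa1 and Hnrnpa3 held 3, 4 and 2 CCAAT motifs, and that of Srsf5 held 0 of these with 3 GC boxes and 2 ETS motifs. Across families, CCAAT was present in 12 of 18 Hnrnp promoters and 3 of 11 Srsf promoters. This compares with 34.5% of 27025 listed promoters outside chromosome 18 and 37.6% of the 7850 of tested genes among these. The GC box was present in 13 of 18 Hnrnp and 10 of 11 Srsf promoters, against 33.0% and 60.8%. The member windows were also richer in G and C (median 65.2%, against 52.0% and 60.0%), and the counts were not corrected for this. ETS motifs were found in 2 Hnrnp and 4 Srsf promoters (7.07% and 16.1%), E-boxes in 2 and 0 (6.04% and 8.90%), and E2F motifs in 1 and 2 (1.35% and 2.89%). By direction, CCAAT was present in 10 of the 16 members called higher, in 1 of the 3 called lower and in 4 of the 9 tested and not called. Within the Hnrnp family it was present in 7 of 10 promoters of genes called higher and 4 of 6 of genes not called, and Hnrnpd, with the next largest increase after the 3 shown, held 0. Some windows, among them those of Hnrnpl, Hnrnpk and Hnrnpm, lie inside the gene as annotated in GENCODE, since the first RefSeq start differs. A match of these letters is a description of the window and shows no binding.

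Genes that work with both families did not move as one. Of 10 kinases and import factors of SR proteins, 1 was higher and 7 lower, beside 24.4% and 29.8% of all genes tested. The median log2 fold change of these 10 genes, GFP-positive over GFP-negative, was -0.51. Clk3, Clk1 and Clk4, nuclear kinases that release SR proteins from speckles, had the largest decreases. Clk1 had 56.1, 45.8 and 52.6 FPKM in GFP-positive and 204, 156 and 137 FPKM in GFP-negative libraries, with no overlap (-1.66 ± 0.16, SE; limma, adjusted p = 9.57e-05). Clk3 averaged 23.1 ± 3.32 FPKM in GFP-positive and 88.1 ± 12.4 FPKM in GFP-negative cells (SD, n = 3 each; -1.91), and Clk4 averaged 31.7 ± 2.87 FPKM in GFP-positive and 68.8 ± 3.47 FPKM in GFP-negative cells (-1.11). Srpk1, the cytoplasmic SR kinase, had 48.2, 51.0 and 49.9 FPKM in GFP-positive and 34.1, 38.3 and 45.2 FPKM in GFP-negative libraries (0.35, limma adjusted p = 0.0422), a call lost in 9 of 16 alternatives.

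SR-related proteins showed 2 higher and 4 lower of 20, with a median of 0.0051. Thus 30.0% of them were called, under the 54.2% of all genes tested. Rnps1, a component of the exon junction complex, rose to 63.7 ± 0.953 FPKM in GFP-positive cells, against 32.0 ± 6.35 FPKM in GFP-negative cells (limma, adjusted p = 0.000642). Rbm39, a partner of U2AF, fell to 169 ± 4.12 FPKM in GFP-positive cells, against 320.4 ± 25.6 FPKM in GFP-negative cells (-0.92), and Son, a scaffold of nuclear speckles, to 92.6 ± 6.77 FPKM in GFP-positive cells, against 143 ± 3.43 FPKM in GFP-negative cells (-0.63; SD, n = 3 each). Among 15 hnRNPs and relatives under other symbols, 7 were higher and 2 lower (median 0.29). These shares of 46.7% and 13.3% stood beside 24.4% and 29.8% of all genes tested. Together 60.0% were called, near the 54.2% of all genes. Pcbp1, or hnRNP E1, rose to 184 ± 11.2 FPKM in GFP-positive cells, against 110.2 ± 6.19 FPKM in GFP-negative cells (0.74), and Syncrip, or hnRNP Q, to 121 ± 8.50 FPKM in GFP-positive cells, against 74.0 ± 8.35 FPKM in GFP-negative cells (0.71). Rbmx, or hnRNP G, fell to 31.3 ± 1.95 FPKM in GFP-positive cells, against 47.5 ± 1.09 FPKM in GFP-negative cells (-0.59).

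In each list of components of the spliceosome itself, more genes were called higher than lower. Of all genes tested, 24.4% were called higher and 29.8% lower. Of 20 genes of the U1, Sm and SMN complexes, 16 were higher and 0 lower (median 0.85; of the other 4, all but 1 had a positive log2 fold change), with Gemin4 at 12.9 ± 1.72 FPKM in GFP-positive and 4.42 ± 0.938 FPKM in GFP-negative cells (1.46; SD, n = 3 each) and Snrpf at 110.2 ± 13.6 FPKM in GFP-positive and 43.1 ± 15.7 FPKM in GFP-negative cells (1.41). Of 19 genes of U2 and the 3′ splice site, 14 were higher and 3 lower (median 0.61). U2af1, which reads the AG at the end of introns, stood at 99.3 ± 12.0 FPKM in GFP-positive and 52.1 ± 8.11 FPKM in GFP-negative cells (0.93), while Sf3b1, which contacts the branch point, fell to 94.2 ± 5.88 FPKM in GFP-positive cells, against 152 ± 8.49 FPKM in GFP-negative cells (-0.69). Of 27 tri-snRNP and catalytic proteins, 11 were higher and 3 lower (median 0.29). Together 51.9% of them were called, near the 54.2% of all genes tested. Prpf31 stood at 1.05 and Dhx8 at -0.85 on the log2 fold change scale.

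Other splicing regulators divided into 5 higher and 6 lower of 19 (26.3% and 31.6%, near the 24.4% and 29.8% of all genes tested; median -0.017), and held changes larger than any SR or hnRNP gene. Esrp2, known from epithelia, stood at 4.11 ± 1.42 FPKM in GFP-positive and 27.0 ± 7.63 FPKM in GFP-negative cells (log2 fold change -2.59; SD, n = 3 each), Mbnl2 at 7.88 ± 0.580 FPKM in GFP-positive and 28.0 ± 3.03 FPKM in GFP-negative cells (-1.76) and Celf2, a regulator of T cell splicing, at 56.5 ± 0.682 FPKM in GFP-positive and 146 ± 11.5 FPKM in GFP-negative cells (-1.36). Mbnl3 went the other way, at 51.1 ± 4.51 FPKM in GFP-positive and 22.3 ± 6.28 FPKM in GFP-negative cells (1.21). In nonsense-mediated decay and the exon junction complex, 4 of 15 were higher and 5 lower (26.7% and 33.3%, near the 24.4% and 29.8% of all genes tested; median -0.11). Of the exon junction complex, Magoh (1.01), Magohb (1.22), Rbm8a (0.70) and Eif4a3 (0.62) rose, while Casc3 fell (-0.40, limma adjusted p = 0.0222). Of the kinase complex of the decay pathway, Smg9 (-0.78) and Smg1 (-0.71) fell, and Smg8 was not called (-0.11, adjusted p = 0.508). Of 5 arginine methyltransferases tested, which modify the glycine-rich tails of hnRNPs, 4 were higher and 0 lower (median 0.80). These counts stood beside 24.4% and 29.8% of all genes tested. Prmt1 rose to 86.1 ± 5.25 FPKM in GFP-positive cells, against 37.8 ± 7.46 FPKM in GFP-negative cells (1.19). The methyltransferase gene that was not called had a log2 fold change of -0.35.

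**Figure D4:**
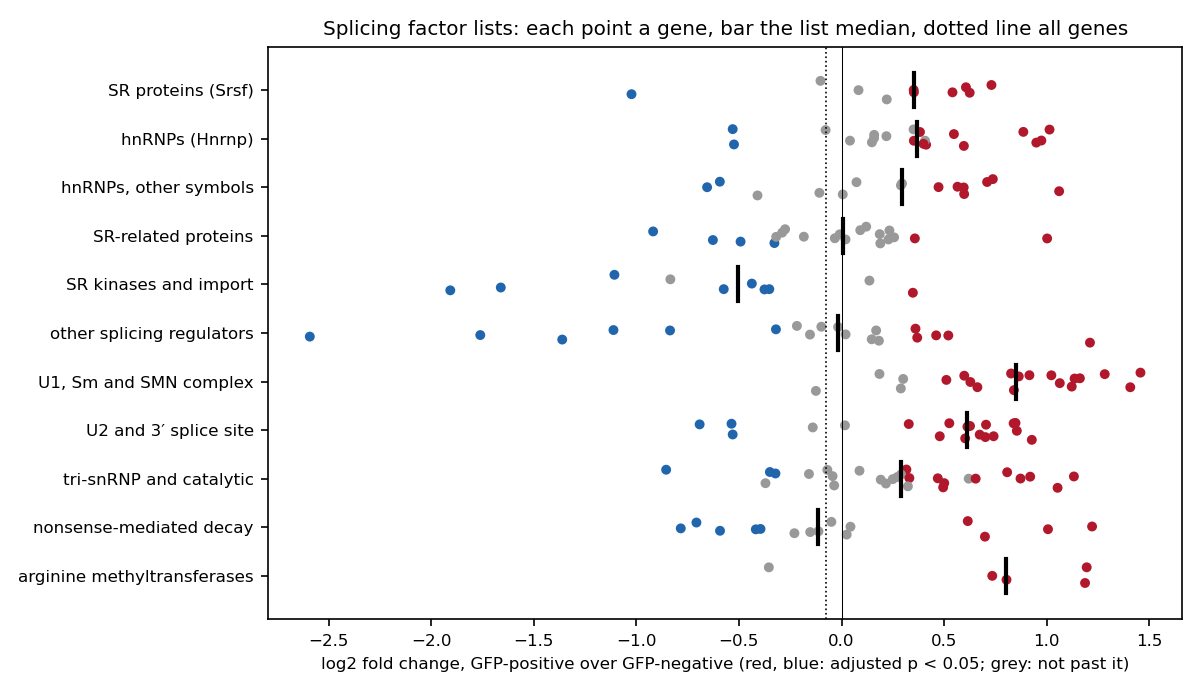
Log2 fold change, GFP-positive over GFP-negative, of the genes of each splicing factor list (points; red and blue passed an adjusted p of 0.05 in limma, grey did not), with the list median as a bar and the median of all genes tested as a dotted line; points are spread vertically for sight only. The medians run from -0.51 for SR kinases and import to 0.85 for the U1, Sm and SMN complex, and the 2 families lie at 0.35 and 0.37.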

How the data were processed

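RNA of 3 GFP-positive and 3 GFP-negative DN4 libraries was depleted of ribosomal RNA, per the labels' protocols. TopHat2, Cuffdiff and mm10 appear without versions in the submitters' processing notes, and the sources used here give neither settings nor an annotation release. Deposited by the authors were FPKM per library from a run over 6 libraries and another over 4 (library 1 of each group left out), with a q-value per gene from the authors' comparison, which is a p-value adjusted over genes. Values of 0 can be failed estimates. Of 41386 genes, 24 with the authors' status HIDATA were left out, and 11465 with a mean of at least 1 FPKM were tested with limma 3.58.1 in R 4.3.3 (trend and robust) on log2(FPKM + 0.5), with Benjamini and Hochberg's adjustment and a threshold of 0.05. This log2 scale, computed from the FPKM the authors deposited, understates the change of low genes; no count test was run, since FPKM are not counts. Ratios were tested with exact permutation tests in SciPy 1.17.1. Fits were tested on simulated data. GENCODE M21 (mm10) gave positions and transcript types for 99.1% of the tested identifiers. Values below 0.3 FPKM were searched for a common step. Depth is unknown, so no counting intervals are given. The members, lists, ratios and tests were chosen with earlier results of these data known. All members were named. In other lists, genes named are among the 4 largest changes past the threshold per direction or, where none passed, those with the highest mean (Alas2); markers at 0, Ighm, Itgam, Casc3 and Smg8 were named after their values were seen. Alternatives were pseudocounts of 0.1 and 1, no minimum, a minimum of 5 FPKM, quantile and upper quartile scaling, a limma fit with neither trend nor robust, the replicate block, the 4-library table, the same 4 libraries in the 6-library table, and each library left out.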

Additional observations from a re-analysis of the deposited data

How the results depend on the processing

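Of the 19 members called, 9 kept their call in all 16 alternatives (Srsf5, Srsf9, Srsf10, Hnrnpd, Hnrnpa0, Hnrnph1, Hnrnpab, Hnrnpa1 and Hnrnpr). With quantile normalization, 4 Srsf members were called, 3 of them higher, and 4 Hnrnp members were called lower, at medians of 0.20 (Srsf) and 0.21 (Hnrnp); the log2 fold changes of Srsf6 (-0.019), Hnrnpa2b1 (-0.22), Hnrnpl (-0.34), Hnrnpk (-0.485), Hnrnpu (-0.14) and the marker Alas2 (0.29) turned sign; the cause was not tested. Upper quartile scaling turned Alas2 (0.034), and the 4-library table turned Hnrnpdl (0.022). The lower Hnrnp members numbered 1 with no minimum FPKM, without trend and robust, in the 4-library table and in the same 4 libraries of the 6-library table. With single libraries left out, higher Hnrnp calls ran from 6 (without GFP-positive library 3) to 11, lower ones from 1 to 2, the log2 fold change of Hnrnpu from -0.064 to 0.12 and that of Alas2 from -0.30 to 0.27. The 4-library table gave 4815 called genes and the 6-library table gave 6216. Deviations of libraries with the same number from their group means correlated at 0.094, -0.0209 and 0.061 across genes. Between libraries of different number the correlations ran from -0.112 to 0.0652, and GFP-positive library 2 correlated best with GFP-negative library 3 (0.0652). With 3 libraries a group, these values cannot tell whether the numbers pair the libraries. With the replicate block 6390 genes were called in all, with 7 Srsf and 14 Hnrnp members. Without total reads, the precision of single values cannot be given, and 3 libraries a group limit it.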
